A study of Mus musculus with 36 samples.

Results

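The ribosome protected fragments (RPFs) of the low nuclease wild-type (WT) pellet were compared with the RNA of the brains of the same preparation. The members are the libraries named granule and RNA of the WT genotype that did not follow the second, M protocol. They are 6 of the 36 libraries of the series, 3 of the pellet and 3 of RNA. The series covers WT and FMR1 KO mice, pellet and fraction 5/6 of sucrose gradients, and whole brain RNA, each in both preparations. The question was how many ribosome fragments each mRNA gave in the pellet relative to its RNA, a measure called occupancy, and which of these values depended on 1 RNA library or on the preparation.

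All 6 libraries came from C57BL/6 mice that were 5 days old, with no deleted gene and no drug, and each preparation pooled 10 brains. In the low nuclease preparation brains were homogenized with 2.5 mM MgCl2 and the pellet was digested mildly with RNase I. The standard preparation, used here only for comparison, had 10 mM MgCl2 and a stronger digestion, so that buffer, nuclease and the preparation of RNA cannot be told apart. The labels call the low preparation "control", and its reading as low nuclease follows the study's methods. The pellet is whatever sediments through the gradient from the whole brain, without a sort for neurons. The 3 RPF replicates carried different linkers and were pooled in 1 library preparation, and nothing given ties the 3 RNA libraries to particular pellets, so p-values measure the spread between these samples.

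A ribosome that elongates or stalls shelters a short stretch of mRNA from nuclease, and sequencing these stretches shows which messages carry ribosomes. Neurons pack stalled polysomes into RNA granules that travel along dendrites and axons and sediment heavily, and FMRP, the RNA-binding protein lost in fragile X syndrome, is a known component of these granules. Messages for secreted and membrane proteins are translated on the endoplasmic reticulum, cytosolic proteins are made on free ribosomes, and the proteins of mitochondrial DNA are made by the mitochondrion's own ribosomes.

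The 3 pellet libraries held 23634940, 44696473 and 37212237 counts, and the 3 RNA libraries 87493056, 46349715 and 141505786. The second RNA library stood apart. Its 10 most counted genes took 82.4% of its counts, against 4.00% and 3.66% in the other RNA libraries and 13.8% to 16.4% in the pellets. Cmss1 and Filip1l, which overlap on opposite strands, each took 25.2% of it, and in RNA replicates 1 and 3 Cmss1 took 0.00747% and 0.00272%. Cdk8 took 9.22% of RNA replicate 2 and 5.31%, 4.69% and 4.00% of the 3 pellets, against 0.0241% and 0.00566% of RNA replicates 1 and 3. It was the most counted gene of each pellet. Arsg, Zc3h7a, Jarid2, Gphn, Lars2 and Il31ra followed in RNA replicate 2, while Zfp740, Csad, Peak1, Ubtf, Ube4b and Hnrnph3 exceeded 1% only in a pellet. In all, 17 genes above 1% of at least 1 library were dropped from all 6 libraries. That left 8002371 counts in RNA replicate 2, 32251680 at the median pellet and 140753486 in RNA replicate 3. Spearman correlations of the remaining mRNAs were 0.951 to 0.983 among RNA libraries, 0.971 to 0.977 among pellets and 0.856 to 0.876 between the 2 kinds. Genes and coordinates are those of GRCm38.

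**Figure D1:**
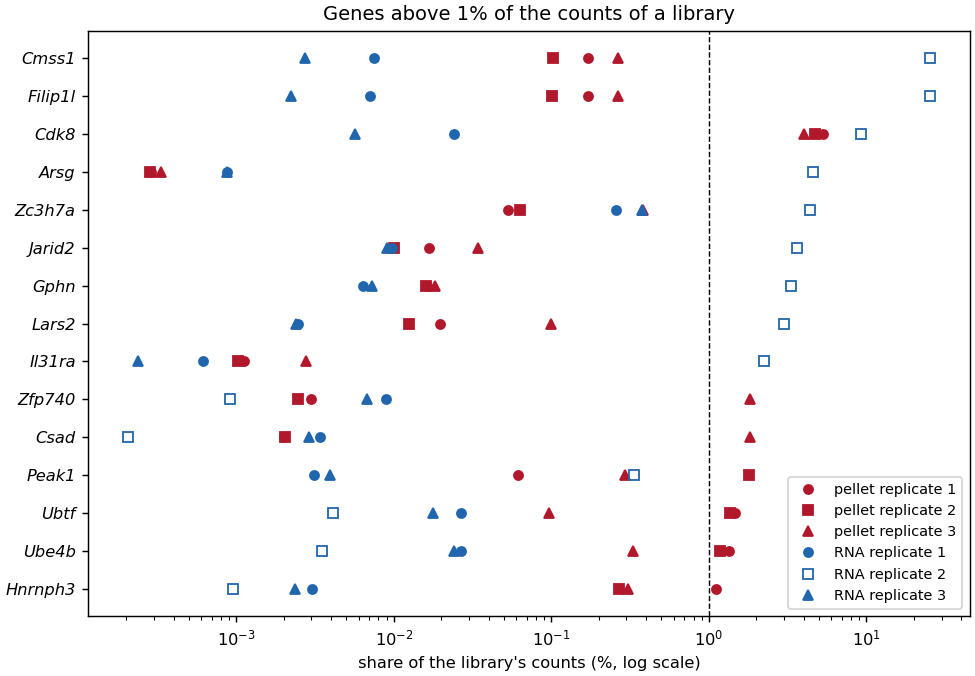
Share of each library's counts (%, log scale) taken by 15 of the 17 genes above 1% in at least 1 of the 6 libraries. The open squares of RNA replicate 2 reach 25.2% for Cmss1 and Filip1l, the filled blue symbols of the other RNA libraries all lie below 1%, and Cdk8 exceeds 1% in the 3 pellets and in RNA replicate 2.

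Of 15597 mRNAs tested, 3909 (25.1%) had a higher and 4340 (27.8%) a lower share in the pellet than in RNA, at an adjusted p under 0.05 by edgeR's quasi-likelihood test. The median log2 fold change over all of them was -0.09. The 3 pellet values lay wholly above or below the 3 RNA values for 9580 mRNAs (61.4%). Without RNA replicate 2, 4433 of 15977 mRNAs (27.7%) were higher and 4998 (31.3%) lower. Of the mRNAs called with all 6 libraries, 3768 of those higher (96.4%) and 4134 of those lower (95.3%) were called in that direction without it, and 0 were called in the opposite one. Scaling by library size alone, without TMM, shifted the median by -0.20 and gave 2850 higher and 4619 lower, so each group below is read against the median of all mRNAs. Values below are CPM, that is counts scaled to a common library total with TMM factors, in the order of replicates 1 to 3, and differences are log2 fold changes of pellet over RNA ± SE. In such bulk libraries, fewer cells of a type and less RNA per cell cannot be told apart.

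The largest rises were of genes that brain RNA hardly held. 1810046K07Rik stood at 228, 227 and 169 CPM in the pellets and 0.0404, 0 and 0.0116 in RNA, a difference of 13.06 ± 0.48. The homeobox gene Hoxa9, which patterns the trunk, had 39525 counts over the pellets and 0 over the RNA libraries, at least 42389.8-fold higher against a floor of 3 counts over the group, but its pellet values were 787, 662 and 3.39 CPM. Hoxd11 was likewise at 0 counts in RNA, at least 2954-fold higher, with pellet values of 53.6, 0.487 and 53.0. So 1 pellet of each lay far under the other pellets, and not the same pellet. Gata4, a heart and gut transcription factor, owed its size mainly to pellet 3 (0.386, 0.344 and 404 CPM, against 0.0202, 0.147 and 0 in RNA). It missed the threshold without RNA replicate 1 or 3 but not without pellet 3. Its lowest difference with 1 library left out was 4.76, against 13.27 ± 3.74 with all 6. Dmbt1, which overlaps Fgfr2, lacked pellet 1 (0.482, 780.1 and 819 CPM). Among the 100 largest rises, 39 had pellet libraries more than 10-fold apart and 70 had a mean under 1 CPM in RNA, whereas 209 of all 15597 mRNAs had pellets that far apart.

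Hmx1, a homeobox gene of the eye and ear, was steadier at 341, 276 and 218 CPM in the pellets and 0.101, 0 and 0.0349 in RNA. Sftpc, a lung surfactant protein, had 126, 58.9 and 56.1 against 0.0809, 0 and 0.116, and the olfactory receptor Olfr1358 50.0, 15.3 and 29.5 against 0, 0 and 0.0349. Each pellet lay far above each RNA library for all 3. Ntn5, a netrin, and Sec1, a fucosyltransferase, lie on opposite strands of chr7:45677686-45694556 and had nearly the same counts, 963, 1010.0 and 1287 and 963, 1010.2 and 1288 CPM in the pellets and under 1 CPM in RNA, so the same reads cannot be assigned to either. Grin2d, an NMDA receptor subunit on chr7:45831883-45878378, had almost the same pellet values, 985, 1038 and 1322 CPM, against 149, 118 and 193 in RNA. Grin2d overlaps Kdelr1. Where in each gene the fragments lay was not analysed here.

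With at least 10 CPM in every RNA library, a limit added after the values were seen, 8638 mRNAs remained, of which 2546 (29.5%) were higher and 2649 (30.7%) lower. The 2 largest rises were then of genes for RNA handling. Prpf4b, a kinase of the spliceosome, stood at 7746, 3093 and 3462 CPM against 30.4, 59.6 and 28.4, a difference of 6.92 ± 0.60 (adjusted p = 0.00023). Smg5, a factor of nonsense-mediated decay, stood at 5701, 6608 and 5554 against 85.2, 42.9 and 66.2, a difference of 6.52 ± 0.40 (adjusted p = 0.00012). Ramp1, a receptor-modifying protein, and the clock gene Per2 differed by 4.96 ± 0.25 and 4.83 ± 0.26. For these 4 genes every pellet lay above every RNA library. Ubash3b, also among the largest rises, rested on pellet 2, with 70.4, 6833 and 73.2 CPM against 66.0, 49.9 and 57.9 and a difference of 0.32 without that pellet, and Nsa2, of ribosome assembly, was highest in pellet 3, with 396, 388 and 1521 against 18.04, 37.6 and 12.6. In the standard preparation the differences of Smg5 and Per2 were 0.85 and 1.12.

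The largest falls were led by Ccnb1ip1 and by mitochondrial messages. Ccnb1ip1, a ubiquitin ligase of meiosis, had 10.4, 12.5 and 9.29 CPM in the pellets and 5526, 720.1 and 1677 in RNA, a difference of -7.94 ± 0.88, with RNA libraries that were several-fold apart among themselves. Of mRNAs encoded in mitochondrial DNA, 0 of 9 tested were higher and 9 were lower, with a median of -6.45 (-6.00 without RNA replicate 2). The cytochrome oxidase subunit mt-Co1 had 4.58, 10.9 and 6.52 CPM in the pellets and 178, 956 and 790.1 in RNA. mt-Cytb, of complex III, had 4.10, 6.07 and 3.10 against 83.5, 506 and 486. In the RNA of both, replicate 1 was the lowest, and no pellet came near it. The NADH dehydrogenase subunits mt-Nd1, mt-Nd2 and mt-Nd4 differed by -6.67, -6.04 and -6.10. mt-Nd5 and mt-Nd6 lie on opposite strands and overlap, so their -6.12 and -6.65 may share reads. Cdr1, whose locus yields an abundant circular RNA in brain, had 1.83, 0.773 and 0.913 CPM against 61.5, 26.6 and 91.8, and the retrotransposon-derived Rtl8a 0.531, 0.745 and 0.293 against 58.7, 6.61 and 32.4. At 10 CPM or more in every RNA library the falls also included the chromatin protein prothymosin α, Ptma, with 43.3, 51.6 and 32.5 CPM against 810.4, 1135 and 301, and ferritin light chain, Ftl1, with 24.9, 24.8 and 23.5 against 435, 134 and 359. Celsr1, a planar polarity cadherin, had 5.64, 5.99 and 5.77 against 27.3, 473 and 35.0, so that RNA replicate 2 made most of its difference of -4.94, which was -2.42 without it. The counts do not separate the Cdr1 mRNA from the circular RNA of its locus.

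Named mRNAs of neurons showed what RNA replicate 2 decides. Fmr1, which encodes FMRP, had 70.0, 76.3 and 69.2 CPM in the pellets and 29.9, 75.7 and 23.0 in RNA. The second RNA value lay within the pellet range and the others far below it, so the difference was 0.76 ± 0.41 (adjusted p = 0.16) with that library and 1.44 (adjusted p = 0.00083) without it. Map1b, a microtubule-associated protein of growing axons, behaved alike, at 10209, 11998 and 9673 CPM against 4409, 11570.5 and 4494, with 0.64 ± 0.44 (adjusted p = 0.25) and, without RNA replicate 2, 1.26 (adjusted p = 0.003). Tubb2b, a β-tubulin of migrating neurons, had 2676, 3217 and 2265 against 1754, 2849 and 1509 and passed the test only without that library (0.74, adjusted p = 0.032, against 0.42 ± 0.32, adjusted p = 0.31). Camk2a, the dendritic kinase subunit, had 452, 462 and 432 CPM in the pellets and 409.9, 323 and 417 in RNA, a difference of 0.23 ± 0.20 that passed the test neither with nor without it (adjusted p = 0.37 and 0.55).

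The opposite also occurred. Col8a1, a collagen, had 5.94, 655 and 8.14 CPM in the RNA libraries and 4.34, 5.24 and 6.91 in the pellets. Its difference of -5.33 ± 1.78 (adjusted p = 0.037) became -0.35 (adjusted p = 0.27) without RNA replicate 2 and was 1.89 with the RNA of the standard preparation. Among the 100 largest falls, 9 had RNA replicate 2 more than 10-fold above both other RNA libraries. Hsp90b1, a chaperone of the endoplasmic reticulum, had 140.4, 159.5 and 223 CPM against 88.5, 357 and 116, and its difference turned from -0.10 ± 0.51 (adjusted p = 0.88) to 0.77 (adjusted p = 0.036) when that library was left out.

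**Figure D2:**
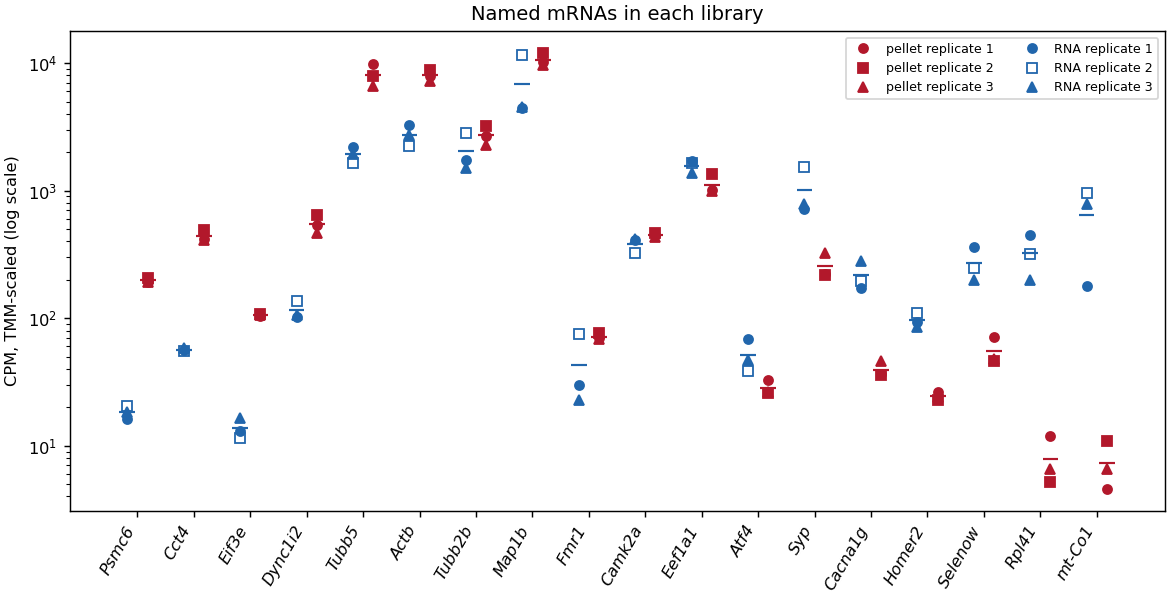
CPM (TMM-scaled, log scale) of 18 named mRNAs in each RNA library (blue, left of each name) and each pellet (red, right), with horizontal lines at the means of 3 libraries. From Psmc6 to Actb the pellets lie above the RNA values, from Atf4 to mt-Co1 below them, and the open square of RNA replicate 2 reaches the pellets for Tubb2b, Map1b and Fmr1.

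In the groups that follow, the named members are the highest and lowest by fold change among those with a mean of at least 10 CPM, or come from a further set of 11 mRNAs fixed by name. With all 6 libraries, counts of members that rose or fell are to be read beside 25.1% and 27.8% of all mRNAs. Messages for the machinery of protein folding, degradation and tRNA charging had high occupancy. Of 20 chaperones and chaperonin subunits, 13 rose and 0 fell, with a median of 1.58 (1.89 without RNA replicate 2, when 18 rose). The chaperonin subunit Cct4 had 415, 496 and 412 CPM in the pellets and 56.3, 54.9 and 58.6 in RNA, a difference of 2.96 ± 0.20 (adjusted p = 0.00013). Its partner Cct8, which overlaps Usp16, differed by 2.57 ± 0.26. Every pellet lay above every RNA library for both. Hspe1, the small mitochondrial co-chaperonin that overlaps Hspd1, was lowest at -0.62 ± 0.30 (adjusted p = 0.12), was at -0.37 without RNA replicate 2 and passed the test without RNA replicate 3 (-0.90), and Hspa5, of the endoplasmic reticulum, had 175, 185 and 252 CPM against 87.3, 285 and 153, with overlapping groups.

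Of 37 proteasome mRNAs, 25 rose and 0 fell, with a median of 1.01. Psmc6, an ATPase of the regulatory cap, had 193, 207 and 192 CPM against 16.1, 20.6 and 18.4, a difference of 3.43 ± 0.19 (adjusted p = 8.9e-05). Psma1, of the core's outer ring, had 189, 196 and 169 against 24.8, 24.1 and 21.3, a difference of 2.98 ± 0.18. Both sets of libraries were far apart. The immunoproteasome subunit Psmb10 was lowest at -0.42 ± 0.34 (adjusted p = 0.33). Of 20 aminoacyl-tRNA synthetases, 18 rose and 0 fell, with a median of 1.07, led by the aspartyl enzyme Dars (2.37 ± 0.23) and the phenylalanyl subunit Farsb (2.29 ± 0.19), and ending at the valyl enzyme Vars (0.23 ± 0.22, adjusted p = 0.4).

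Translation factors were divided. Of 41 initiation factors and regulators, 18 rose and 5 fell, with a median of 0.55. The eIF3 subunit Eif3e had 104, 107 and 105 CPM against 13.1, 11.4 and 16.6, a difference of 2.93 ± 0.19 (adjusted p = 0.00013), and Eif3l differed by 2.48 ± 0.20. Eif4ebp2, the brain's repressor of eIF4E, fell from 129, 72.5 and 100.3 CPM in RNA to 28.7, 23.9 and 20.2 in the pellets, a difference of -2.06 ± 0.26 (adjusted p = 0.00066), and Eif1, which guards start codon choice, had a difference of -1.83 ± 0.45. Of 8 elongation factors, 1 rose and 2 fell, and without RNA replicate 2, 2 rose and 1 fell. Eef1a2, the neuronal form of eEF1A, rose by 1.01 ± 0.22, and Eef1g fell to a difference of -1.75 ± 0.27. Eef1a1, with near-identical copies in the genome, had -0.49 ± 0.25 (adjusted p = 0.13), and Eef2, the translocase, 0.56 ± 0.23 (adjusted p = 0.068, and 0.041 without RNA replicate 2).

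Cytosolic ribosomal protein mRNAs were low. Of 82, 2 rose and 50 fell, with a median of -0.97 (-1.03 without RNA replicate 2). Rpl41, the smallest ribosomal protein, had 11.96, 5.16 and 6.62 CPM in the pellets and 452, 318 and 200.1 in RNA, a difference of -5.36 ± 0.47 (adjusted p = 0.00024). Rps2 differed by -2.92 ± 0.35. Counts of this family are uncertain because its processed pseudogenes share sequence with the genes. Mitochondrial ribosomal proteins, imported from the cytosol, had 25 of 78 higher, 8 lower and a median of 0.27, and 16 lower without RNA replicate 2. The sign of the median turned with the RNA of the standard preparation (12 higher, 42 lower and a median of -0.51).

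Nuclear-encoded subunits of the respiratory chain spread over a wide range, with 27 of 81 higher, 12 lower and a median of 0.31, which also turned with the standard RNA (17 of 82 higher, 45 lower, -0.54). Uqcrc2, a core protein of complex III, had 446, 472 and 436 CPM against 69.6, 84.5 and 62.8 (2.64 ± 0.21), and Atp5c1, the γ subunit of ATP synthase, 229, 221 and 228 against 36.7, 37.6 and 42.6 (2.54 ± 0.17). The very small subunits Atp5l and Cox7c stood at the other end, with 0.579, 0.286 and 0.456 against 27.7, 12.6 and 22.5 CPM (-5.62 ± 0.42) and 5.16, 2.43 and 3.78 against 51.2, 42.6 and 31.7 (-3.47 ± 0.33). Of 17 glycolytic enzymes 4 rose and 1 fell, the latter being Gapdh, which has many pseudogenes (-1.88 ± 0.23), while Aldoc, the brain aldolase, rose by 1.54 ± 0.18. Of other mRNAs, Mdh1, the cytosolic malate dehydrogenase, rose by 2.56 ± 0.20, and creatine kinase Ckb was at 0.72 ± 0.30 (adjusted p = 0.077), or 0.47 without RNA replicate 2.

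Cytoskeletal messages differed by group. Of 12 tubulins, 8 rose and 1 fell, with a median of 0.99. Tubb5 had 9805, 7997 and 6605 CPM against 2205, 1656 and 1951, a difference of 2.07 ± 0.30 (adjusted p = 0.0011), and Tubb3, the neuronal isotype, which overlaps Galnt2l on the same strand, 3958, 4661 and 3470.3 against 2100.1, 1961 and 1605 (1.09 ± 0.26, adjusted p = 0.01). Tuba1b was the one that fell, from 398, 341 and 375 to 114, 114 and 83.5 CPM, a difference of -1.84 ± 0.21. α-Tubulin genes are close to identical in sequence, and Tuba1b overlaps Gm49450, so its count is uncertain. Of 25 actins and proteins of actin turnover, 12 rose and 4 fell, with a median of 0.39, or 0.18 without RNA replicate 2, while with the standard RNA 8 were higher and 14 lower, with a median of -0.69. Actb, β-actin, had 7967, 8851 and 7185 CPM against 3265, 2259 and 2737 (1.54 ± 0.28, adjusted p = 0.0032), and the Arp2/3 subunit Arpc1a rose by 1.86 ± 0.24. Tmsb10, a very short actin-sequestering peptide, fell from 281, 366 and 213 to 43.9, 22.1 and 24.6 CPM (-3.25 ± 0.35). Of 25 microtubule-associated proteins 10 rose and 3 fell, among them Dcx, of migrating neurons, at 1.32 ± 0.27, and Stmn1, which destabilizes microtubules, at -1.89 ± 0.47, or -1.24 without RNA replicate 2.

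The giant linkers of the membrane skeleton were low against this RNA. Of 10 spectrins, ankyrins and spectraplakins, 0 rose and 8 fell, with a median of -1.28, and without RNA replicate 2, 5 fell, with a median of -0.88. With the standard RNA 3 were higher and 2 lower, with a median of 0.05. The spectraplakin Dst had 130.5, 112 and 143 CPM in the pellets and 365, 867 and 572 in RNA, with RNA replicate 2 the highest (-2.23 ± 0.34). The β-spectrin gene Sptbn4 had -1.91 ± 0.21, and 0.17 with the standard RNA. Motor proteins were mixed, with 11 of 34 higher, 5 lower and a median of -0.02, beside 25.1%, 27.8% and -0.09 for all mRNAs. The dynein intermediate chain Dync1i2 had 540.2, 647 and 463 CPM against 103, 137 and 106 (2.258 ± 0.23, adjusted p = 0.00037), whereas the dynein heavy chain Dync1h1 had 757, 793 and 753 against 1286, 3178 and 1669 (-1.41 ± 0.36, adjusted p = 0.013). For the former every pellet lay above the RNA libraries and for the latter below them. Dync1h1 was at -0.94 without RNA replicate 2, its highest RNA library, and at 1.34 with the standard RNA.

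RNA-binding proteins of granules were more often high than low, with 16 of 36 rising and 1 falling at a median of 0.66. Elavl2 and Elavl4, neuronal stabilizers of AU-rich mRNAs, rose by 2.05 ± 0.19 and 1.87 ± 0.20, and G3bp2, of stress granules, by 1.64 ± 0.26. Ybx1, a packaging protein of untranslated mRNA, was the one that fell, from 554, 711 and 358 to 106, 123 and 95.4 CPM (-2.32 ± 0.29). Of 51 splicing factors and hnRNPs, 18 rose and 10 fell, with Ptbp2, the neuronal splicing repressor, at 2.71 ± 0.25, Sf3b1, of the U2 particle, at 2.304 ± 0.26, and Srsf3 and Hnrnpf at -1.63 ± 0.27 and -1.59 ± 0.19. Of 28 cell cycle and replication genes 17 rose and 1 fell, with a median of 0.99. Rrm1, the ribonucleotide reductase subunit, had 135, 151 and 128 CPM against 23.4, 33.5 and 21.6 (2.41 ± 0.22), Mcm4, of the replicative helicase, differed by 2.11 ± 0.21 and Cdk1 by 2.44 ± 0.27, and cyclin D2, Ccnd2, fell to -0.68 ± 0.18, which missed the threshold without any 1 of the pellets. Replication-dependent histones had 4 of 56 higher and 16 lower, and 5 of 58 and 28 without RNA replicate 2.

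**Figure D3:**
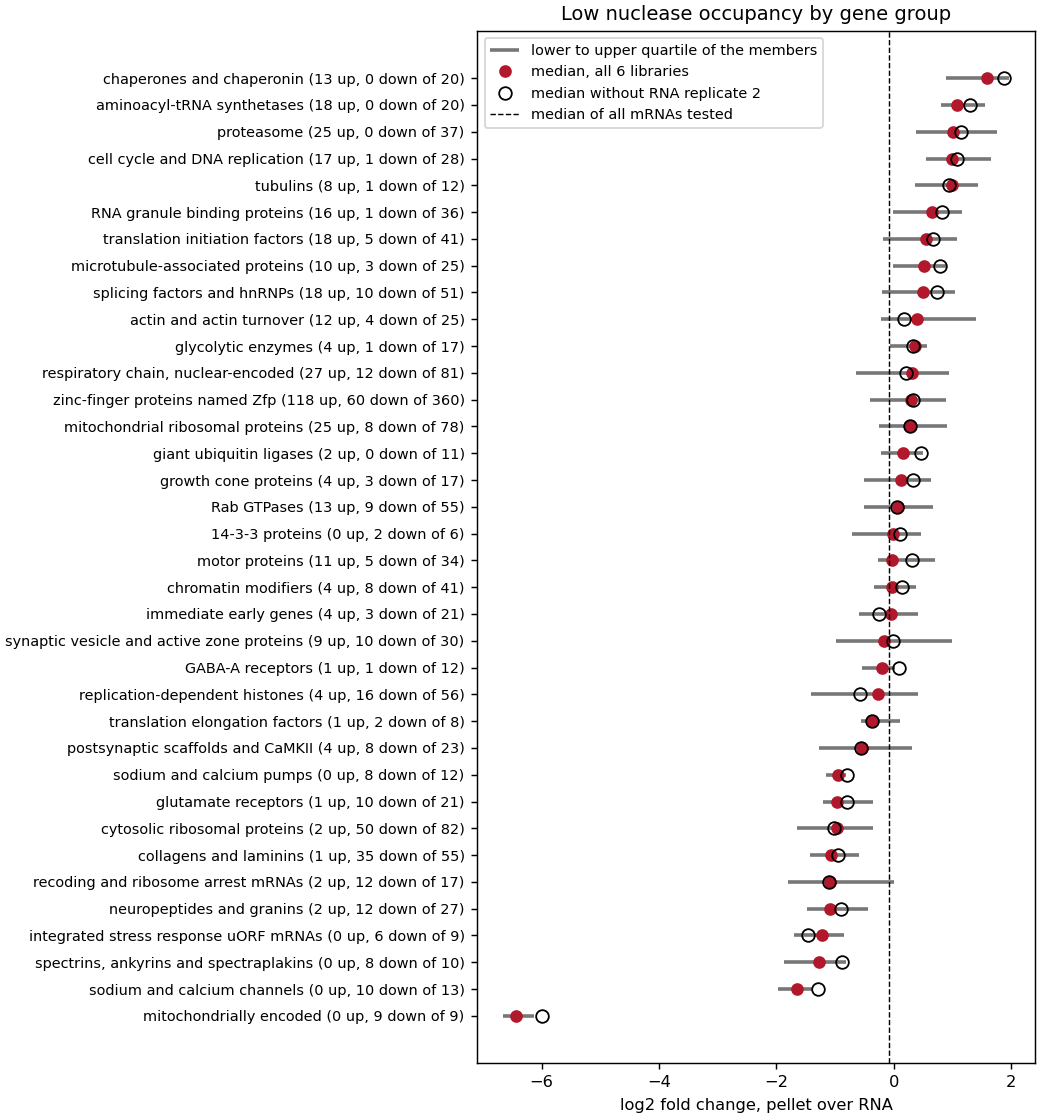
Median log2 fold change of pellet over RNA for each of 36 gene groups, with all 6 libraries (red) and without RNA replicate 2 (open), the lower to upper quartile of the members as bars and the median of all mRNAs as a dashed line. Chaperones, aminoacyl-tRNA synthetases, proteasome, cell cycle genes and tubulins stand at about 1 or above, and mitochondrially encoded mRNAs lie apart at -6.45.

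Ion channels, pumps and glutamate receptors were low against this RNA, and their medians were above 0 with the standard RNA, as given below. Of 13 voltage-gated sodium and calcium channels, 0 rose and 10 fell, with a median of -1.65. The T-type calcium channels Cacna1g and Cacna1i had 36.2, 36.1 and 46.4 CPM against 173, 197 and 281 and 29.7, 31.0 and 46.1 against 127, 158 and 179, differences of -2.45 ± 0.25 and -2.12 ± 0.24. Of 12 sodium and calcium pumps, 0 rose and 8 fell, with a median of -0.95, and without RNA replicate 2, 5 fell. The plasma membrane calcium pump Atp2b2 fell from 300.0, 658 and 605 to 147, 167 and 234 CPM (-1.51 ± 0.34). Of 21 glutamate receptors 1 rose and 10 fell, with a median of -0.97, with the kainate subunits Grik5 and Grik3 at -2.57 ± 0.25 and -2.25 ± 0.29, and Grin2d, described above, as the one that rose. GABA-A receptors had 1 of 12 higher and 1 lower, with a median of -0.20, and without RNA replicate 2 they had 2 higher and 0 lower, with a median of 0.09. In the standard preparation, its own pellet over its own RNA had a median of -1.15 for channels (1 of 13 higher, 8 lower). There it was -0.58 for glutamate receptors (2 of 21 higher, 8 lower) and 1.03 for pumps (7 of 12 higher, 1 lower). All mRNAs in that comparison had -0.27, with 25.3% higher and 36.7% lower.

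Synaptic proteins lay on both sides. Of 30 vesicle and active zone proteins, 9 rose and 10 fell, beside 25.1% and 27.8% of all mRNAs. The fusion ATPase Nsf had 793, 1002 and 823 CPM against 211, 282 and 239.7 (1.84 ± 0.23), and Rab3a, the vesicle GTPase, and Stx1a, a membrane SNARE, rose by 1.71 ± 0.28 and 1.69 ± 0.28. The vesicle membrane protein synaptophysin, Syp, had 221, 219 and 325 against 716, 1529 and 789.7 (-1.99 ± 0.36, adjusted p = 0.003) but was at 2.38 with the standard RNA, and the active zone scaffold Bsn was at -1.92 ± 0.20. Outside that list, the vesicular glutamate transporter Slc17a7 fell from 348, 385 and 373 to 50.0, 45.2 and 77.8 CPM (-2.68 ± 0.26). Of 23 postsynaptic scaffolds and CaMKII subunits 4 rose and 8 fell, with Camk2g at 2.12 ± 0.23, Homer2 at -1.98 ± 0.17, Dlgap3 at -2.18 ± 0.35 and the adhesion protein Nlgn3 at -2.15 ± 0.29. Of the growth cone list 4 of 17 rose and 3 fell, with Dpysl4 and Crmp1, which bind tubulin, at 1.29 ± 0.21 and 1.18 ± 0.28, and Marcksl1 and the adhesion molecule Cntn2 at -1.59 ± 0.35 and -1.32 ± 0.26. With the standard RNA Nlgn3 was at 0.71 and Cntn2 at 2.01.

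Collagens and laminins, and neuropeptides and granins, had low medians against this RNA and high ones against that of the standard preparation. Of 55 collagens and laminins, 1 rose and 35 fell, with a median of -1.07, or 1.07 with the standard RNA. Col4a2, of the basement membrane, which overlaps Col4a1, had 21.1, 18.8 and 28.8 CPM against 74.8, 98.9 and 127 (-2.13 ± 0.26, and 1.29 with the standard RNA), and Col5a3, the one that rose, 25.0, 15.01 and 17.01 against 2.24, 0.587 and 2.23 (3.33 ± 0.41). Of 27 neuropeptides and granins 2 rose and 12 fell, with a median of -1.09, or 1.01 with the standard RNA. The convertase inhibitor Pcsk1n had 83.4, 79.1 and 113 CPM against 712, 317 and 539.8 (-2.51 ± 0.34), and chromogranin A, Chga, 75.1, 82.3 and 107 against 152, 469 and 185 (-1.61 ± 0.43, adjusted p = 0.016), with RNA replicate 2 far the highest, and it was at -0.93 without that library, missed the threshold without pellet 1 or 2 and was at 2.28 with the standard RNA. Rab GTPases, which act on the cytosolic face of membranes, had 13 of 55 higher and 9 lower, 20 of 56 and 14 without RNA replicate 2, and 6 of 56 and 37 with the standard RNA, from Rab26 at 2.34 ± 0.31 and Rab11a at 2.22 ± 0.18 to Rab15 at -2.41 ± 0.21. Of 6 14-3-3 proteins 0 rose and 2 fell, Ywhaq (-1.73 ± 0.19) and Ywhaz (-0.95 ± 0.23), the latter not without pellet 3 (-0.82).

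Messages whose translation is gated by upstream open reading frames were low, with 0 of 9 higher, 6 lower and a median of -1.23. Atf4, the transcription factor of the integrated stress response, had 33.0, 26.0 and 26.4 CPM against 68.3, 38.5 and 46.7, a difference of -0.85 ± 0.24 (adjusted p = 0.021), which missed the threshold without pellet 2 or without pellet 3 (-0.78 and -0.75). Atf5, which overlaps other genes, and Slc35a4 had -1.73 ± 0.30 and -1.39 ± 0.27. Of 21 immediate early genes 4 rose and 3 fell, among them Nr4a2 at 1.42 ± 0.29 and Jund at -2.94 ± 0.48. Without RNA replicate 2 these counts were 2 and 8.

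Of 17 mRNAs known for recoding or ribosome arrest, 2 rose and 12 fell, with a median of -1.09. The antizymes Oaz1 and Oaz2, read by a programmed frameshift that polyamines promote, had 7.14, 4.93 and 5.41 CPM against 118, 80.7 and 78.2 (-3.99 ± 0.26, adjusted p = 0.00013) and 17.1, 14.2 and 15.8 against 112, 61.4 and 76.5 (-2.41 ± 0.25). The antizyme inhibitor Azin1 rose, with 189, 206 and 168 against 122, 110.4 and 112 (0.71 ± 0.17, adjusted p = 0.01), and was at -0.45 with the standard RNA. Every pellet of Oaz1 and Oaz2 lay below the RNA libraries and every pellet of Azin1 above them.

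Selenoproteins, which read an in-frame TGA as selenocysteine, could be found by sequence. Of 15501 coding sequences of GENCODE M21 on GRCm38 that were tested, 21 (0.135%) held an in-frame TGA, and no other stop codon, before their last codon. Mitochondrial sequences were read with their own code, in which TGA is not a stop, so their TGA codons were not counted. Of these 4 rose and 13 fell, with a median of -0.89, beside 25.1% and 27.8% of all mRNAs. The 12 bases on each side of the first TGA, or as many as the coding sequence holds, are shown for the 3 lowest members, for 5 whose TGA lies in the last few codons and for the highest member, with that codon in capitals, in the DNA letters of the annotated transcript, 5′ to 3′.
Selenow: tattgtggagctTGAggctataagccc
Selenom: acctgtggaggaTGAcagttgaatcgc
Gpx4: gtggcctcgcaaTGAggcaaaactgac
Selenok: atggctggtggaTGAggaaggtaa
Txnrd1: cagtctggctgcTGAggttaa
Txnrd2: gtgactggttgcTGAggctaa
Txnrd3: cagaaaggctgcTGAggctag
Selenoo: ctctgtgtaacaTGAtcctcataa
Dio3: ggcagctgtaccTGAccaccgttcatg

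In Selenow, a small redox protein of brain and muscle on chromosome 7, the TGA is codon 13, near the start, and the mRNA had 71.1, 46.1 and 48.2 CPM in the pellets and 361, 247 and 199 in RNA, a difference of -2.29 ± 0.30 (adjusted p = 0.00076). Selenom, with the TGA at codon 48, and Gpx4, the lipid peroxidase, at codon 73, differed by -1.81 ± 0.30 and -1.64 ± 0.23. In the 3 thioredoxin reductases the TGA is the last amino acid codon but 1. Txnrd1 had 0.47 ± 0.18 (adjusted p = 0.053) and passed the test without RNA replicate 1 (0.60), Txnrd2 0.44 ± 0.27 (adjusted p = 0.19) and Txnrd3 0.94 ± 0.19 (adjusted p = 0.0045). Selenoo, with the TGA at codon 665 of a coding sequence of 2004 bases, rose by 0.60 ± 0.21 (adjusted p = 0.045), a call that was lost without RNA replicate 3 or any 1 pellet. Selenok, also with a TGA near its end, had -1.05 ± 0.26 (adjusted p = 0.011), and the deiodinase Dio3, with its TGA at codon 170, rose by 3.57 ± 0.21, so position and occupancy did not run together in every member. Coding length differed too, at 267, 438, 594 and 285 bases for Selenow, Selenom, Gpx4 and Selenok. It was 1500, 1584 and 1848 for Txnrd1, Txnrd2 and Txnrd3, and 915 for Dio3. The part of length was not tested. In the standard preparation the median of the 21 was -1.93.

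Features of the messages with a coding sequence that no list used were set against occupancy in the 15495 of these mRNAs whose coding sequence is long enough for the window used, as a description without a test. A hydrophobic stretch, taken as 19 residues whose mean Kyte-Doolittle hydropathy was at least 2.0, as signal anchors and transmembrane segments have, was held by 3582 proteins. Of their mRNAs 285 (7.96%) rose and 1747 (48.8%) fell, with a median of -0.83, and of the 11913 without one 3602 (30.2%) rose and 2562 (21.5%) fell, with a median of 0.14. With a limit of 1.6 the medians were -0.56 and 0.15. The gap was present in each of 4 equal classes of coding length, with medians of -0.94 and -0.32 in the shortest class and -0.80 and 0.30 in the longest. Across these classes, of at most 858, 1380 and 2205 bases in the first 3, medians were -0.44, -0.06, 0.12 and 0.05. Across 4 equal classes of the coding sequence's GC content they fell from 0.65 through 0.10 and -0.31 to -0.75, with 46.3% higher in the lowest class and 7.15% in the highest. RNA and RPF libraries were built differently, and the part of library building in these trends was not tested.

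The RNA of the standard preparation gave a check on the denominator. With its 3 libraries in place of the low nuclease RNA, 5058 of 16340 mRNAs were higher (31.0%) and 5458 lower (33.4%). The median of mRNAs with a hydrophobic stretch turned from -0.83 to 0.23, while that of mRNAs without one went from 0.14 to -0.06. Among the groups, collagens and laminins turned from -1.07 to 1.07, neuropeptides from -1.09 to 1.01, glutamate receptors from -0.97 to 1.00, sodium and calcium channels from -1.65 to 0.50 and pumps from -0.95 to 2.12. Others turned from above to below 0, among them actin turnover, mitochondrial ribosomal proteins and the respiratory chain, as given above, zinc-finger proteins named Zfp from 0.29 to -0.37 and Rab GTPases from 0.08 to -0.58. Chaperones (1.597), aminoacyl-tRNA synthetases (1.30), tubulins (1.11) and the proteasome (0.69) stayed above 0, and ribosomal proteins went to -2.69. The GC trend was flatter with this RNA, from 0.20 in the lowest class to -0.34 in the highest.

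**Figure D4:**
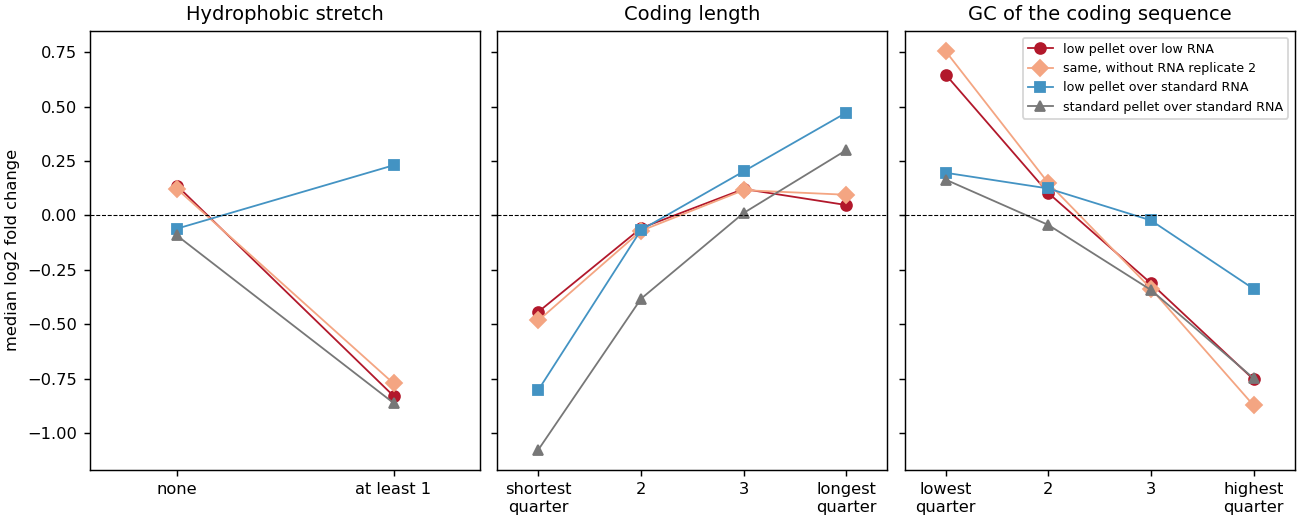
Median log2 fold change (y axis) of mRNAs by hydrophobic stretch, coding length class and coding GC class, for the low pellet over low RNA, the same without RNA replicate 2, the low pellet over standard RNA, and the standard pellet over standard RNA. The low pellet over standard RNA is the only series of the 4 in which a hydrophobic stretch goes with the higher median (0.23 against -0.06).

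The low and standard preparations were then compared in 1 fit of 12 libraries, with no library in both. In the standard pellets 1 gene, Cdk8, took 43.7% to 47.0% of the counts, and genes above 1% in any of the 12 were dropped. Occupancy was higher in the low preparation for 3194 of 16113 mRNAs (19.8%) and lower for 1108 (6.88%), with a median difference of 0.31. That split depends on the scaling. With RLE size factors it was 2131 and 1725 with a median of 0.07, with DESeq2 2586 and 2206, and with library size alone 5452 and 569 with a median of 0.77, so differences are to be read against 0.31 and not against 0. Across genes the occupancies of both preparations had a Pearson correlation of 0.604 and a Spearman correlation of 0.682, which describes genes and not replicates. In this fit 4529 mRNAs (28.1%) were higher and 4764 (29.6%) lower in the low preparation, and 4076 (25.3%) and 5918 (36.7%) in the standard one. Of the mRNAs higher in the low preparation 62.9% were higher in the standard one, and of those lower 75.8% were lower there, while 246 rose in the low and fell in the standard preparation and 128 did the reverse.

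Groups whose difference kept its sign under these scalings included the following. Cytosolic ribosomal proteins had a median difference of 1.77, with 60 of 82 higher and 0 lower, and replication-dependent histones 1.92, with 25 of 61 higher. Recoding mRNAs had 1.11, with 9 of 17 higher. Pumps had -1.91, with 7 of 12 lower, giant ubiquitin ligases -1.47, with 10 of 11 lower, spectrins and their partners -1.13, with 5 of 10 lower, and collagens and laminins -0.71, with 18 of 55 lower. Of the giant ligases, which are among the longest cellular proteins, Birc6 had an occupancy of 1.25 in the low and 2.04 in the standard preparation, and Herc2 -0.79 and 1.98. In the fit of 6 libraries Herc2 was at -0.80 ± 0.30 (adjusted p = 0.055), at -0.42 (adjusted p = 0.077) without RNA replicate 2, and past the threshold only without RNA replicate 3 (-0.98). Trip12, a smaller ligase of that list that overlaps Fbxo36, rose by 1.49 ± 0.23 in the low preparation.

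Some named mRNAs were called in opposite directions, with an adjusted p under 0.05 for the difference. The dynein heavy chain Dync1h1 was at -1.40 in the low and 2.79 in the standard preparation (difference -4.20, adjusted p = 0.0001). Syp was at -1.98 and 0.97 (adjusted p = 0.0024), the kinase Lmtk3 at -2.77 and 0.82 (adjusted p = 4.5e-05) and Eif4ebp2 at -2.05 and 1.21 (adjusted p = 0.0023). Azin1 was at 0.72 and -0.39 (adjusted p = 0.0016). Dync1h1, Syp, Lmtk3 and Eif4ebp2 thus lay below their RNA in the low preparation and above it in the standard one, and Azin1 the other way round.

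Both sides of the ratio moved. RNA was higher in the low preparation for 2948 mRNAs (18.3%) and lower for 4511 (28.0%), and pellet RPFs were higher for 3388 (21.0%) and lower for 1397 (8.67%). In RNA the medians were 3.03 for pumps, 2.38 for channels, 2.05 for glutamate receptors, 1.99 for collagens and laminins and 1.63 for neuropeptides, against -0.19 for all mRNAs, and -1.65 for cytosolic ribosomal proteins and -1.62 for histones. In the pellet the same groups had 1.23, 1.62, 1.63, 0.91 and 1.23, against 0.05 for all, and -0.02 and 0.01. The mRNA of Syp was 4.33 higher in the low RNA and 1.38 higher in the low pellet on the log2 scale, and that of Lmtk3 4.43 and 0.84. For Dync1h1 they were 2.71 and -1.48. Leaving out each low nuclease RNA library in turn gave 2740 to 2986 mRNAs higher and 3796 to 4806 lower in RNA, with 2986 and 4677 without RNA replicate 2. Whether tissue, extraction or library preparation sets the RNA difference was not tested.

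**Figure D5:**
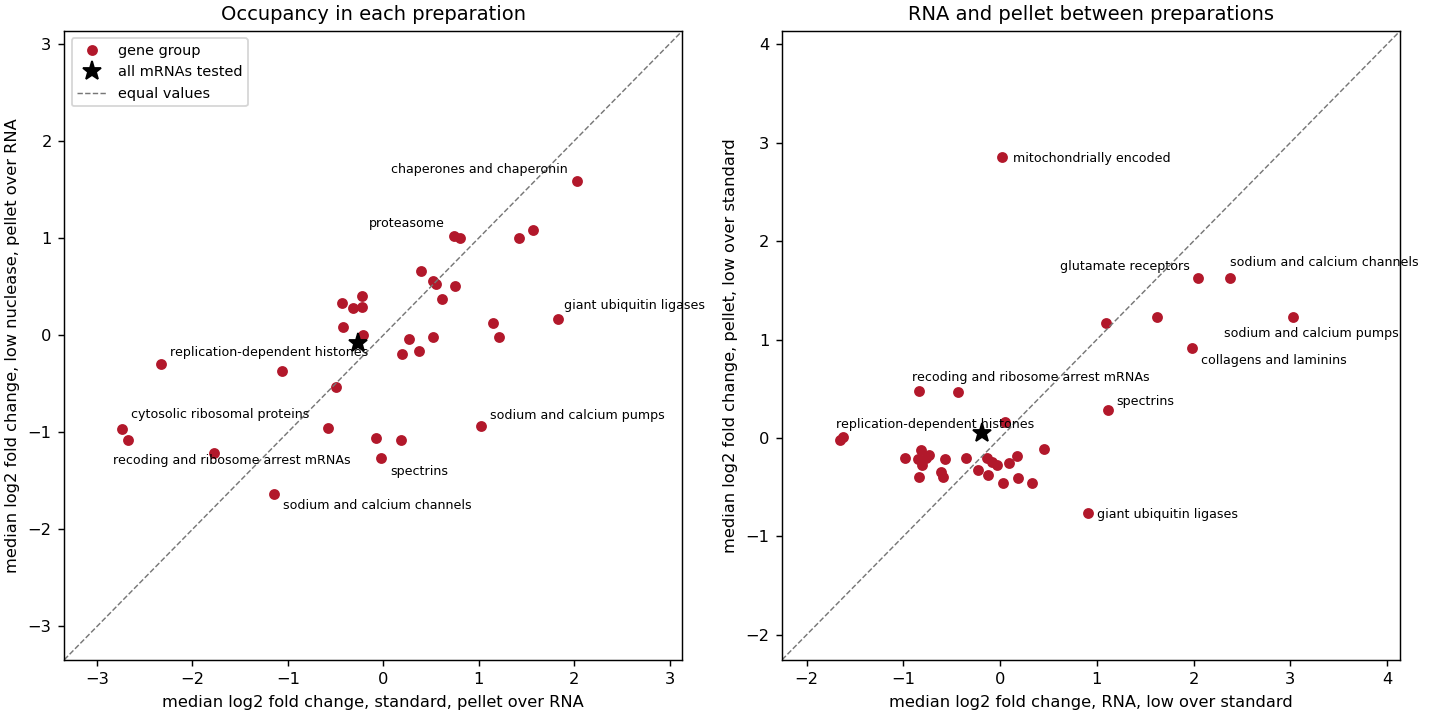
Median log2 fold change of each gene group (red points) and of all mRNAs (star), with occupancy in the low against the standard preparation on the left, where the mitochondrially encoded group is left out, and the shift of the pellet against the shift of RNA between preparations on the right. Ribosomal proteins, histones and recoding mRNAs lie above the line on the left and pumps, spectrins and giant ligases below it, and channels, pumps and glutamate receptors lie at upper right on the other plot.

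The pellet was also set against fraction 5/6 of the low nuclease preparation, the lighter ribosome clusters, which shares the pellet libraries with the comparison above but not the RNA. The pellet was higher for 2232 of 15577 mRNAs (14.3%) and lower for 1335 (8.57%), with a median of -0.02. With the replicate number as a block, since same-numbered libraries deviated together, 2947 (18.9%) were higher and 2088 (13.4%) lower. With library size alone the split turned to 1641 higher and 2496 lower. Leaving out 1 library gave 708 to 1823 higher and 87 to 726 lower, with the fewest without pellet 3 and next fewest without pellet 1 (952 and 119). Giant ubiquitin ligases had 11 of 11 higher and a median of 2.62. Other groups with medians above 0 included pumps (10 of 12 higher, 1.79), channels (7 of 13 higher, 1.186) and spectrins and their partners (9 of 10 higher, 0.87). Map1b was 2.34 (adjusted p = 0.017) and Dync1h1 2.90 (adjusted p = 0.0018) higher than in fraction 5/6. Ribosomal proteins had 54 of 82 lower (median -0.56) and splicing factors 23 of 51 lower (-0.52). These group counts are without the block, with which 9 of 13 channels were higher and 69 of 82 ribosomal proteins lower. Fmr1 was at -0.56 (adjusted p = 0.019). Channels and pumps were thus low against their own RNA and high against fraction 5/6, and Pamr1, Ntn5, Sec1 and Grin2d, among the 5 largest rises over fraction 5/6 by the naming rule, were also higher than in RNA, with Pamr1 at 6.99 ± 0.38 and 5.18.

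The lists of messages tied to FMRP and stalling came from other experiments. Of 748 mRNAs crosslinked to FMRP by Darnell and colleagues 170 rose and 273 fell, with a median of -0.23, and of 261 crosslinked by Maurin and colleagues 47 rose and 92 fell, with a median of -0.28. Of 185 mRNAs whose ribosomes resisted run-off in the list of Shah and colleagues 52 rose and 44 fell, with a median of -0.06. Beside them stand 25.1% higher, 27.8% lower and a median of -0.09 for all mRNAs. With the RNA of the standard preparation the 3 medians were 0.39, 0.46 and 1.45, beside -0.02 for all. Against fraction 5/6 they were 0.46, 0.77 and 0.96, with 302 of 749, 140 of 262 and 108 of 185 mRNAs higher, beside 14.3% higher and a median of -0.02 for all mRNAs in that comparison.

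Markers of cell types are given beside the 25.1% of all mRNAs that were higher and the 27.8% that were lower. Of 13 neuron markers 8 rose and 2 fell (median 1.08), and their summed level was 10759 to 13504 CPM in the pellets and 5536 to 7943 in RNA. Gad1, which makes GABA, rose by 1.59 ± 0.24, and Rbfox3, the NeuN antigen, fell to -0.56 ± 0.17 (adjusted p = 0.026), which missed the threshold without RNA replicate 3 or any pellet. Of 10 astrocyte and radial glia markers 5 rose and 0 fell, with sums of 2476 to 2841 and 1392 to 2029 CPM, and Vim at 1.26 ± 0.19. Of 10 oligodendrocyte markers 1 rose and 3 fell, with sums of 651 to 809 and 706 to 951 CPM, and of 9 microglia markers 1 rose and 4 fell, although their summed level was higher in the pellets, 189.6 to 206 against 166 to 185 CPM. Of 9 endothelial and pericyte markers 0 rose and 2 fell, with 58.8 to 87.9 and 77.7 to 107.6 CPM. Of 5 red blood cell markers 0 rose and 3 fell, with 29.1 to 40.7 and 38.6 to 104.7 CPM, and Hba-a1, which has a near-identical copy, at -1.93 ± 0.46. Of 6 choroid plexus and ependyma markers 1 rose and 2 fell, with 108 to 257 and 156 to 284 CPM. No marker tested was at 0 in any of the 6 libraries, and the part of cell types in the gene groups above was not tested.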

How the data were processed

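RPFs (25 to about 40 bases, gel-selected) and RNA were sequenced and deposited by the authors as a table of read counts per gene. Per the labels and methods, reads were trimmed with cutadapt 2.10, rRNA and other non-coding reads were removed with Bowtie2 2.3.5, STAR 2.7.8a aligned the rest to GRCm38, Picard marked duplicates, SAMtools 1.19.2 removed them and featureCounts 2.2.0 counted reads in genes. The library barcodes mark samples, not molecules, so removal of duplicates can lower abundant short fragments most. Here 26 non-coding genes of 16614 and the 17 genes above 1% of any of the 6 libraries were left out, low counts were filtered with filterByExpr and counts were scaled by TMM. Pellet and RNA were compared with edgeR 4.0.16 (quasi-likelihood test, Benjamini-Hochberg adjustment at 0.05) in R 4.3.3, with limma 3.58.1 voom and DESeq2 1.42.0 as alternatives. The low-against-standard difference was an interaction term over 12 libraries, and fraction 5/6 was fitted with the pellets. On simulated counts the occupancy fit recovered 86% of 100 4-fold and 8% of 100 2-fold changes (15448 genes), the difference 72% and 4% (15886 genes) and the fraction fit 84% and 12% (15397 genes). Each simulation changed 200 genes, far fewer than were called in the data, so its adjusted threshold was stricter than that of the fits. Named mRNAs are the 10 largest rises and falls with non-overlapping libraries and a mean of at least 10 CPM (5 in the other comparisons), up to 3 highest and lowest members of 46 gene lists with at least 10 CPM, and 11 further mRNAs fixed by name. Prpf4b, Smg5, Ramp1, Per2, Ubash3b, Nsa2, Ptma, Ftl1, Celsr1 and the selenoproteins were chosen after their values were seen. Members and lists were chosen with earlier results of these data known. Coding sequences came from GENCODE M21 on GRCm38. Strand was not stated for the counting, so overlapping genes can share reads. Deviations of same-numbered pellet and fraction 5/6 libraries from their group means correlated at 0.19, 0.118 and 0.211, and those of different numbers at -0.166 to -0.0143, so these were taken as paired from the data, while no label states the pairing. A few genes are not reported here.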

Additional observations from a re-analysis of the deposited data

Results flagged for a closer look

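Occupancy differed between the low and the standard preparation for 4302 mRNAs by the interaction term of edgeR's quasi-likelihood test, beside 6399 at an unadjusted p under 0.05. The named mRNAs among them follow with the difference of low minus standard on the log2 scale, to be read against the median of 0.31 over all mRNAs.

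Among loci with little RNA it was 13.02 for 1810046K07Rik, 11.21 for Dmbt1, 6.80 for Ntn5, 6.94 for Sec1, 6.13 for Pamr1, -6.76 for Hmx1 and -4.24 for Sftpc. Hmx1 and Sftpc were thus higher over their RNA in the standard preparation. Among better expressed loci it was 7.11 for Nsa2, 5.71 for Ramp1, 5.67 for Smg5, 5.36 for Ubash3b, 5.07 for Prpf4b, 3.72 for Per2, 3.44 for Grin2d and -5.21 for Celsr1.

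Mitochondrial mt-Nd1 and mt-Nd4 differed by 4.13 and 4.07, Cdr1 by 3.54, and the short respiratory chain subunit Atp5l by 2.90, with Atp5c1 at 1.67 and Uqcrc2 at 0.65. In translation and folding, Eif3e differed by 2.59, Eif3l by 0.71, Eef1a1 by 1.37, Farsb by 0.92, Cct4 by 0.92, Psmc6 by 1.43 and Psma1 by 1.36. Vars was at -1.04, Eif4ebp2 at -3.26, and the chaperones of the endoplasmic reticulum Hspa5 and Hsp90b1 at -2.25 and -2.62. The ligases Birc6 and Herc2 were at -0.79 and -2.77.

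Of neuronal and membrane mRNAs, Dync1h1 differed by -4.20, Lmtk3 by -3.59, Syp by -2.95, Chga by -2.38, Col4a2 by -2.256, Sptbn4 by -2.22, Col5a3 by -1.92, Cntn2 by -1.86, Map1b by -1.55, Nlgn3 by -1.40 and Bsn by -1.08. In the other direction Stx1a was at 1.63, Ywhaq at 3.67, Ywhaz at 1.00, Homer2 at 2.32, Gapdh at 1.42, Rab11a at 1.04, Rab15 at 0.96, Dcx at 1.06 and Actb at 0.95.

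RNA-binding and cell cycle mRNAs gave 1.56 for Hnrnpf, 1.16 for Elavl2, 0.71 for Elavl4 and 1.29 for Cdk1. Ferritin light chain, Ftl1, gave 2.03. Messages with upstream frames, recoding or selenocysteine gave 1.71 for Atf4, 1.49 for Slc35a4, 1.26 for Oaz1, 1.11 for Azin1, 2.258 for Selenow, 2.13 for Gpx4, 2.302 for Selenok and 3.71 for Dio3. Which part of the preparation moved with these differences was not tested.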

How the results depend on the processing

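Occupancy counts stayed within 1.5 times under another scaling, DESeq2, voom, other filters, the genes above 1% kept and the standard RNA. Required to exceed 1.5-fold, 2551 mRNAs were higher and 2758 lower, and with at least 10 CPM in every RNA library, a limit chosen after seeing the data, 2546 and 2649, since fewer mRNAs were tested. Without 1 library, 3126 to 4433 were higher and 3019 to 4998 lower. The low-against-standard difference gave 1725 lower with RLE factors, 5452 higher and 569 lower with library size alone and 2206 lower with DESeq2, and without 1 library 2570 to 3583 higher and 734 to 1201 lower. The pellet against fraction 5/6 gave 2496 lower with library size alone, and without 1 library 708 to 1823 higher and 87 to 726 lower. The cause was not tested beyond scaling and sample number.

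Signs turned for these mRNAs. Without RNA replicate 1 Hspa5 was at -0.10 and Psmb10 at 0.039, and over the libraries left out Hspa5 ranged from -0.10 to 0.77, Psmb10 from -0.68 to 0.039 and Hsp90b1 from -0.44 to 0.77. Hsp90b1 was also at 0.28 with voom, 0.17 with the replicate block and 0.020 with 10 CPM in every RNA library. With the RNA of the standard preparation, Cntn2 was at 2.01, Sptbn4 0.17, Dync1h1 1.34, Nlgn3 0.71, Grik3 0.48, Syp 2.38, Cacna1g 0.50, Cacna1i 0.24, Atp2b2 1.598, Eef2 -0.014, Hsp90b1 3.53, Herc2 0.88, Azin1 -0.45, Col4a2 1.29, Col8a1 1.89, Chga 2.28, Lmtk3 1.69, Celsr1 0.26 and Txnrd1 -0.026.

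No label pairs the pellet and RNA libraries by replicate number, and their deviations did not settle whether they are paired. Same-numbered pellet and RNA deviations had correlations of 0.12, -0.0108 and 0.101. These were the highest for pellets 1 and 3, while pellet 2 correlated best with RNA 1 (0.0691). With the number as a replicate block 3776 were higher and 4151 lower in occupancy, 2828 and 878 in the difference and 2947 and 2088 against fraction 5/6, where Map1b, Dync1h1, Fmr1, Pamr1, Ntn5, Sec1 and Grin2d passed the test in the same direction with and without it. RNA replicate 2 was the shallowest library once the genes above 1% were left out (8002371 counts), so small differences could be missed. The simulation, in which few 2-fold changes were recovered, changed 200 genes, whereas the occupancy fit called 8249 of 15597. Its adjusted threshold was thus stricter, and its recovery does not measure how many small differences were missed here.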
